A study of Mus musculus with 10 samples.

Results

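The 10 genes described here encode sensors of nucleic acid in the cytosol and the proteins that relay their signal: Tmem173 (STING), Zbp1 (ZBP1), Aim2 (AIM2), Trex1 (TREX1), Ddx58 (RIG-I), Ifih1 (MDA5), Dhx58 (LGP2), Mavs (MAVS), Tbk1 (TBK1) and Irf3 (IRF3). They were taken by symbol from the authors' expression matrix of 21969 genes, in which each stood on 1 row, and all 10 of 10 passed the filter on low values (FPKM 1 or more in at least 2 libraries). Tmem173 and Zbp1 were put on the list because they had been seen to be high in GS cells. Their values in GS cells are therefore a description with no test, and the other 8 genes were tested in every comparison.

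The series followed spermatogonial stem cells, which maintain sperm production, while cultures of them were being established from DBA/2 mice. Week 0 was adult testis cells selected magnetically through CD9, a surface protein that is not restricted to stem cells, and weeks 1, 2 and 3 were such cells after that time in culture. GS cells were DBA/2 spermatogonial stem cell cultures that had been established earlier. The medium of the cultures was based on Iscove's formulation and held FGF2, GDNF and a low share of fetal bovine serum. No genetic change is given for any group. Each of the 5 groups held 2 libraries of poly(A) RNA, 10 libraries in all, which the labels do not tie to separate animals or cultures. The p-values thus rest on the spread between libraries alone, which may be technical. The age of the mice beyond adult, the passage of the GS cells and the presence of feeder cells are not stated in those labels.

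As background, cells read DNA or RNA in their cytosol as a sign of virus, damage or active retroelements. DNA is bound by cGAS, whose product activates STING on the endoplasmic reticulum, while RIG-I and MDA5 bind viral-type RNA and signal through MAVS on mitochondria. Both routes meet at the kinase TBK1, which activates the transcription factor IRF3 and so the type I interferon genes. ZBP1 binds nucleic acid in the Z conformation and can trigger death by necroptosis through RIPK3 and MLKL, and AIM2 assembles an inflammasome on DNA. In the germ line, where retroelements become active when DNA methylation is erased, these routes are of interest because the same nucleic acids can come from the cell itself.

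Depth, read from the steps of the FPKM values, was 10.35 to 21.06 M reads per library. Pearson r between the replicates of each group was 0.987 to 0.993, taken across genes, which are not independent replicates. FPKM scales fragment counts by transcript length and library size, so levels can be set beside each other between genes. Summed FPKM was 579697 to 860429 per library, so levels of 1 gene in different groups depend on the scaling. The fits were also run after quantile normalization and with libraries rescaled to a common sum. Fold changes below are differences of log2(FPKM + 1) fitted with limma, with their standard error (SE), a scale that understates changes of low genes. The labels name every library spermatogonial stem cells, but the 8 spermatid markers summed to 23611.2 and 25350.8 FPKM at week 0, where the 14 markers of undifferentiated spermatogonia summed to 427 and 414 FPKM. The spermatogonial sum was 1408.4 and 1488.1 FPKM in GS cells, with none of the 14 at 0, and the spermatid sum there was 7.00 and 8.92 FPKM, with Prm1, Prm2, Tnp2 and Acrv1 at 0. In bulk RNA, fewer cells of a type and less RNA per cell cannot be told apart.

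**Figure D1:**
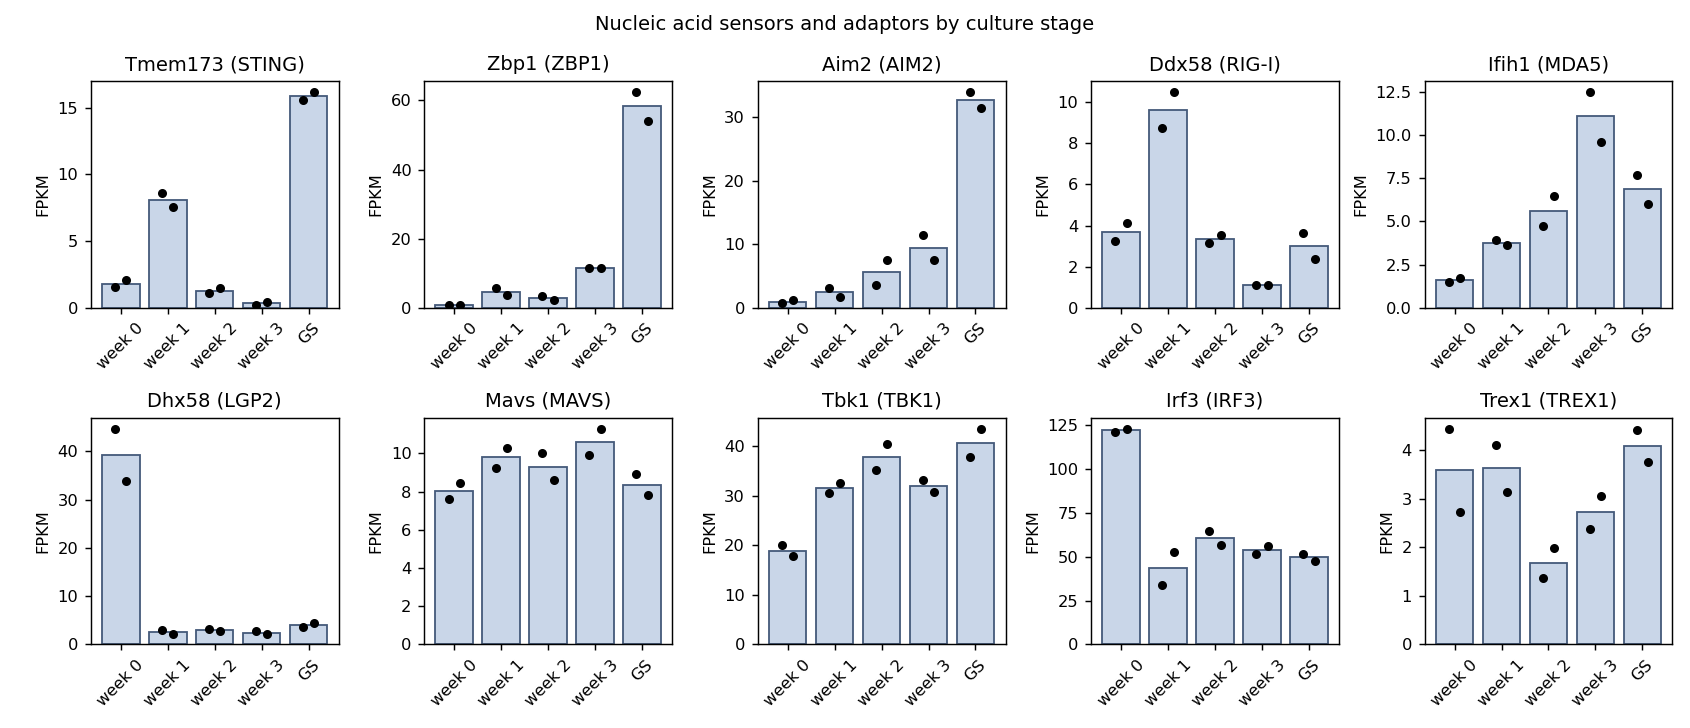
FPKM of the 10 genes by culture stage, 1 panel per gene with its own axis from 0; bars are means of 2 libraries and points are the libraries. Tmem173 reads high at week 1 (8.64 and 7.56) and in GS cells (15.6 and 16.2), Zbp1 and Aim2 are highest in GS cells, and Dhx58 and Irf3 are highest at week 0.

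Tmem173, on chromosome 18, encodes STING, the adaptor that cyclic dinucleotides switch on. It read 1.56 and 2.07 FPKM (week 0), 8.64 and 7.56 (week 1), 1.08 and 1.45 (week 2), 0.196 and 0.454 (week 3) and 15.6 and 16.2 (GS cells). The gene thus had 2 high stages, week 1 and GS cells, with a low stretch between them, and no 2 neighbouring groups in the order GS cells, week 1, week 0, week 2, week 3 overlapped. The level at week 3 rested on few reads, about 6 and 18 reads if all came from the longest annotated transcript, against about 692 and 640 in GS cells. Tmem173 rose at week 1, to 8.10 ± 0.76 FPKM against 1.82 ± 0.36 at week 0 (SD, n = 2; log2 fold change 1.70, SE 0.16, limma adjusted p = 1.52e-05). It fell at week 2, to 1.26 ± 0.27 FPKM (log2 fold change -2.01, limma adjusted p = 2.52e-05), and fell again at week 3, to 0.325 ± 0.18 FPKM (log2 fold change -0.77, limma adjusted p = 0.0123). The last fall was no longer called without week 2 replicate 2 (-0.65, adjusted p = 0.0831) or week 3 replicate 1 (-0.63, adjusted p = 0.0744). It was also lost when only weeks 2 and 3 were fitted (adjusted p = 0.0683), and a pseudocount of 0.1 put it at -1.74. GS cells averaged 15.9 ± 0.39 FPKM, 49.0 times the mean of week 3 and 8.77 times that of week 0, figures that the choice of the gene rests on.

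Zbp1 (chr2:173206612-173218923, minus strand, GRCm38) read 0.901 and 0.682 FPKM (week 0), 5.61 and 3.63 (week 1), 3.43 and 2.37 (week 2), 11.6 and 11.4 (week 3) and 62.5 and 54.2 (GS cells). Its libraries of different groups did not overlap at any step of the order GS cells, week 3, week 1, week 2, week 0, and both GS libraries stood far above the rest. Zbp1 rose at week 3, where Tmem173 fell: it averaged 11.5 ± 0.16 FPKM at week 3 against 2.90 ± 0.74 at week 2 (log2 fold change 1.69, SE 0.20, limma adjusted p = 0.00129). It had also risen at week 1, to 4.62 ± 1.4 FPKM against 0.792 ± 0.15 at week 0 (log2 fold change 1.63, limma adjusted p = 9.32e-05), while its step at week 2 (-0.52, adjusted p = 0.0603) missed the threshold. The GS mean of 58.3 ± 5.9 FPKM was 5.07 times that of week 3 and 73.7 times that of week 0, again a description.

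Aim2, whose protein coats cytosolic DNA and recruits the inflammasome adaptor encoded by Pycard, is shown with the 250 bases before its RefSeq start (chr1:173420354-173420603, plus strand, GRCm38.p6), because its means followed the order of the stages. Capitals mark a GC box (GGGCGG on either strand), 95 to 90 bases before the start; this motif stood in 32.7% of 32851 windows of the same length.
Aim2: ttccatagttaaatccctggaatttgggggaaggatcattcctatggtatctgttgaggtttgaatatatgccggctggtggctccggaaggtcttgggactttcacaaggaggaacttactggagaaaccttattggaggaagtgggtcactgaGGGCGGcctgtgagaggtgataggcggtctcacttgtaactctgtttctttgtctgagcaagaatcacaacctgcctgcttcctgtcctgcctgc

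Aim2 (chr1:173350879-173466040, plus strand) read 0.716 and 1.17 FPKM (week 0), 3.07 and 1.75 (week 1), 3.56 and 7.58 (week 2), 11.4 and 7.46 (week 3) and 34.0 and 31.5 (GS cells). The order of its means was the order of the stages, with an overlap between the libraries of weeks 2 and 3 and none between other neighbours. Aim2 averaged 32.7 ± 1.8 FPKM in GS cells against 0.941 ± 0.32 at week 0 (SD, n = 2; 34.8 times as much; log2 fold change 4.13, SE 0.33, limma adjusted p = 5.44e-06), and adjusted p stayed between 8.16e-07 and 0.000576 over 18 alternatives. Against week 3, at 9.44 ± 2.8 FPKM, GS cells were higher by 1.72 (log2, limma adjusted p = 0.00933), a call lost without week 3 replicate 2 (1.44, adjusted p = 0.0548) or without GS replicate 1 (1.66, adjusted p = 0.0555). The rise at week 2 (log2 fold change 0.90, limma adjusted p = 0.0477) was lost in 10 of 18 alternatives: it was 0.45 without week 2 replicate 2, 0.62 without week 1 replicate 2 and 1.36 without week 2 replicate 1. Without week 0 replicate 1 or 2 or GS replicate 1 or 2 its estimate stayed at 0.90 with adjusted p of 0.0948, 0.0949, 0.0681 and 0.0681. The step at week 1 (0.79, adjusted p = 0.0544) missed the threshold and passed it in 8 alternatives, and the step at week 3 (0.71, adjusted p = 0.171) missed it as well.

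Trex1 encodes the exonuclease that removes DNA from the cytosol and so restrains STING. It read 4.45 and 2.73 FPKM (week 0), 4.12 and 3.15 (week 1), 1.38 and 1.98 (week 2), 2.39 and 3.05 (week 3) and 4.41 and 3.76 (GS cells). Only week 2 stood apart, below every other library, whereas the other 4 groups overlapped in a chain. Trex1 fell at week 2, to 1.68 ± 0.42 FPKM against 3.64 ± 0.69 at week 1 (log2 fold change -0.79, SE 0.22, limma adjusted p = 0.0151). The call was lost without week 1 replicate 1 (-0.64, adjusted p = 0.0836), without week 2 replicate 1 (-0.63, adjusted p = 0.0955) and after quantile normalization (-0.42, adjusted p = 0.144). All 1147 bases of the Trex1 exons (chr9:109057933-109059734, minus strand) lie within exons of Atrip on the same strand, so reads of the 2 genes cannot be told apart and Trex1 values are uncertain. Atrip read 7.55 to 12.4 FPKM in the 10 libraries.

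Of the 3 helicases of the RIG-I family, Ddx58 and Ifih1 went opposite ways between weeks 1 and 3, so the 250 bases before their RefSeq starts are set side by side (Ddx58, chr4:40239826-40240075; Ifih1, chr2:62646256-62646505; both minus strand, GRCm38.p6). Capitals mark GC boxes (GGGCGG or its complement) and a core of the motif bound by interferon regulatory factors (AANNGAAA), searched on both strands. Ddx58 holds 3 GC boxes between 43 and 25 bases before the start, the first 2 sharing a base, and 1 core at 59 to 52 bases; Ifih1 holds neither. Cores of this kind stood in 21.3% of 32851 windows, and GC content was 53.6% for Ddx58 and 50% for Ifih1 against a median of 52.4%.
Ddx58: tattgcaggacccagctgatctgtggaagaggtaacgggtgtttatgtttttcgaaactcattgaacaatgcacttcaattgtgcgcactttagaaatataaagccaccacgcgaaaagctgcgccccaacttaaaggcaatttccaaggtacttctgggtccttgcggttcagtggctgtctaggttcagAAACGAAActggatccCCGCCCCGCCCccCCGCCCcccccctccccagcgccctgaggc
Ifih1: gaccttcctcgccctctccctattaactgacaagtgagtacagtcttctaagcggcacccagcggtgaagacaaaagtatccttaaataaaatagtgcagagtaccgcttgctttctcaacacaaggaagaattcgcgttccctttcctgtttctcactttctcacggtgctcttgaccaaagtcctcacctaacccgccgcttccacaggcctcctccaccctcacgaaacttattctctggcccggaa

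The RefSeq table gave windows for 7 of the 10 genes: Aim2, Ddx58, Ifih1, Irf3, Mavs, Tbk1 and Trex1. None of them held the fuller interferon-stimulated response element (in 2.98% of all windows), the gamma-activated site (TTCNNNGAA, 7.02%) or the kappa-B site (1.41%). Aim2 alone among the 7 held an ETS site (CCGGAAG, 6.91% of all windows), and Mavs and Tbk1 each held 3 GC boxes. A match describes letters in this window and is not a bound site.

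Ddx58 (chr4:40203773-40239828, minus strand), the gene of RIG-I, which binds the ends of viral-type RNA, read 3.27 and 4.10 FPKM (week 0), 8.72 and 10.5 (week 1), 3.13 and 3.53 (week 2), 1.09 and 1.10 (week 3) and 3.65 and 2.39 (GS cells). It peaked at week 1 and was lowest at week 3, while week 0, week 2 and GS cells overlapped. Ddx58 rose at week 1, to 9.60 ± 1.2 FPKM against 3.68 ± 0.59 at week 0 (log2 fold change 1.18, SE 0.18, limma adjusted p = 0.000344; 1.90 after quantile normalization). It fell at week 2 to 3.33 ± 0.28 FPKM (log2 fold change -1.29, limma adjusted p = 0.000501) and at week 3 to 1.10 ± 0.0048 FPKM (-1.05, adjusted p = 0.00604). GS cells, at 3.02 ± 0.89 FPKM, were above week 3 (log2 fold change 0.92, limma adjusted p = 0.00986), a call lost without GS replicate 1 (0.70, adjusted p = 0.0561) or when only these 2 groups were fitted (adjusted p = 0.0801). The difference between GS cells and week 0 (-0.23, adjusted p = 0.261) had no settled sign: it was 0.83 (adjusted p = 0.00186) after quantile normalization.

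Ifih1 (chr2:62595798-62646255, minus strand), the gene of MDA5, which binds long paired RNA, read 1.47 and 1.70 FPKM (week 0), 3.93 and 3.61 (week 1), 4.73 and 6.45 (week 2), 12.5 and 9.58 (week 3) and 7.69 and 6.01 (GS cells). Week 3 was the highest group, and GS cells overlapped with week 2. Ifih1 rose at week 1, to 3.77 ± 0.23 FPKM against 1.59 ± 0.16 at week 0 (log2 fold change 0.88, limma adjusted p = 0.00247; 1.54 after quantile normalization). It rose again at week 3, to 11.1 ± 2.1 FPKM against 5.59 ± 1.2 at week 2 (0.87, SE 0.19, adjusted p = 0.0145). Its step at week 2 (0.45, adjusted p = 0.0725) missed the threshold. The call at week 3 was lost without week 2 replicate 1 (0.69, adjusted p = 0.0928), without week 3 replicate 1 (0.70, adjusted p = 0.0849) or when only weeks 2 and 3 were fitted (adjusted p = 0.0993). GS cells, at 6.85 ± 1.2 FPKM, were above week 0 (log2 fold change 1.60, limma adjusted p = 6.5e-05; 2.57 after quantile normalization) and differed from week 3 by -0.62 (adjusted p = 0.0507), just short of the threshold.

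Dhx58 encodes LGP2, the family member without signalling domains, which tunes the other two helicases. It read 44.7 and 33.9 FPKM (week 0), 2.97 and 2.20 (week 1), 3.14 and 2.86 (week 2), 2.69 and 2.19 (week 3) and 3.66 and 4.50 (GS cells). Week 0 was the highest group by far, and week 1 overlapped with both week 2 and week 3, which did not overlap with each other. The fall at week 1 was the largest change of any of the 10 genes in that comparison: 2.59 ± 0.54 FPKM at week 1 against 39.3 ± 7.7 at week 0 (log2 fold change -3.48, SE 0.18, limma adjusted p = 3.58e-07; -3.87 to -3.21 over 18 alternatives). GS cells, at 4.08 ± 0.59 FPKM, remained below week 0 (-2.98, adjusted p = 9.77e-07). An antisense gene, Dhx58os, overlaps 141 bases of Dhx58 (chr11:100694884-100704271, minus strand), and the strand setting of the counting is not stated.

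Mavs (chr2:131234063-131248025, plus strand), the gene of the mitochondrial adaptor, was called in no comparison. It read 7.60 and 8.45 FPKM (week 0), 9.26 and 10.3 (week 1), 10.0 and 8.60 (week 2), 9.91 and 11.3 (week 3) and 8.90 and 7.82 (GS cells), and every pair of neighbouring groups in the order of its means overlapped. Its limma adjusted p was 0.106 to 0.735, although quantile normalization put it higher at week 1 than at week 0 (0.85, adjusted p = 0.000303) and in GS cells than at week 0 (0.88, adjusted p = 0.000231). Rescaling to a common sum did the same (0.48, adjusted p = 0.0102, and 0.48, adjusted p = 0.00953).

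Tbk1 (chr10:121546455-121586787, minus strand), the kinase shared by both routes, read 20.0 and 17.8 FPKM (week 0), 30.5 and 32.7 (week 1), 35.3 and 40.4 (week 2), 33.2 and 30.7 (week 3) and 37.9 and 43.6 (GS cells). Both week 0 libraries lay below all 8 others, and the cultured groups differed little. Tbk1 rose at week 1, to 31.6 ± 1.6 FPKM against 18.9 ± 1.6 at week 0 (log2 fold change 0.71, SE 0.11, limma adjusted p = 0.000409; 1.21 after quantile normalization). It was higher in GS cells, at 40.7 ± 4.1 FPKM, than at week 0 (1.07, adjusted p = 3.07e-05).

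Irf3, the transcription factor that TBK1 activates, was the most abundant of the 10 genes in every library of weeks 0 to 3, while in GS cells Zbp1 stood above it. It read 121 and 123 FPKM (week 0), 33.8 and 52.8 (week 1), 64.8 and 56.7 (week 2), 51.4 and 55.9 (week 3) and 51.6 and 47.6 (GS cells). Week 0 stood above all cultured libraries, and GS cells overlapped with weeks 1 and 3. Irf3 fell at week 1, to 43.3 ± 13 FPKM against 122 ± 1 at week 0 (log2 fold change -1.51, SE 0.18, limma adjusted p = 7.06e-05; -0.93 after quantile normalization). GS cells, at 49.6 ± 2.8 FPKM, were below week 0 (-1.28, adjusted p = 0.000193; -0.74 after quantile normalization and -0.80 on a common sum). Its rise at week 2 (0.51, limma adjusted p = 0.0408) was lost in 12 of 18 alternatives. It was 0.20 (adjusted p = 0.187) without week 1 replicate 1 and 0.82 without week 1 replicate 2. It was 0.42 (adjusted p = 0.181) without week 2 replicate 1 and 0.61 (adjusted p = 0.0669) without week 2 replicate 2. Leaving out any 1 library of week 0, week 3 or GS cells kept the estimate at 0.51 with adjusted p of 0.0556 to 0.0895. Irf3 (chr7:44997648-45002848, plus strand) shares 88 exonic bases with Bcl2l12 on the opposite strand, which was also lower in culture, at 10.9 and 10.2 FPKM at week 1 against 83.2 and 73.5 at week 0.

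**Figure D2:**
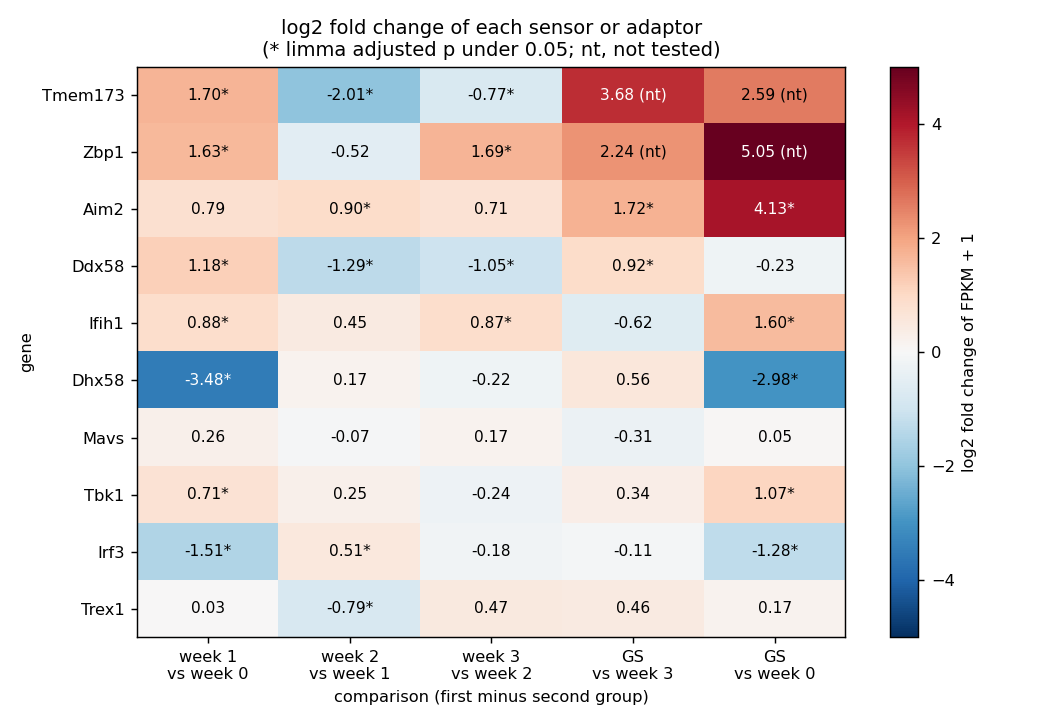
log2 fold change of each gene (rows) in each comparison (columns, first group minus second), with a star where the limma adjusted p was under 0.05 and nt where no test was made. Dhx58 at week 1 against week 0 (-3.48) and Aim2 in GS cells against week 0 (4.13) are the largest tested changes, and the Mavs row holds no star.

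Most of these genes differed between week 1 and week 0, as did most genes of the matrix. Marker sums of other cell types differed between these groups too, as given below, and their part was not tested. At week 1 against week 0, 7 of the 10 passed the test, against 80.3% of all 15671 genes tested. Tmem173, Zbp1, Ddx58, Ifih1 and Tbk1 rose, against 36.3% of all genes, and Dhx58 and Irf3 fell, against 44.0%. The median log2 fold change of the 10 was 0.75, against -0.136 over all genes. Quantile normalization moved the median of all genes in this comparison to 0.378 and rescaling to a common sum moved it to 0.0752. The share of calls that were higher was 45.2% as deposited, 59.8% after quantile normalization and 51.3% on a common sum. Then 8 of the 10 genes were called higher after quantile normalization and 7 on a common sum, with Dhx58 and Irf3 lower in both. Over all 15671 genes, 7772 and 6484 were called higher on these scales.

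At week 2 against week 1, 5 of the 10 passed, near the 55.6% of all genes: Aim2 and Irf3 rose (28.2% of all genes did) and Tmem173, Ddx58 and Trex1 fell (27.4%). Tmem173 and Ddx58 thus gave back their rise of the week before, comparisons that share the week 1 libraries and so are not independent. The 10 had a median of 0.05 beside 0.0252 over all genes, which became 0.173 after quantile normalization and 0.240 on a common sum, with 61.8% and 66.2% of calls higher in place of 50.7%. The count was 3 when no filter was used, when only these 2 groups were fitted and without week 0 replicate 1, week 0 replicate 2, week 1 replicate 1, week 2 replicate 2, GS replicate 1 or GS replicate 2.

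At week 3 against week 2, 4 of the 10 passed, beside 21.3% of all genes: Zbp1 and Ifih1 rose (10.6%) and Tmem173 and Ddx58 fell (10.7%). Zbp1 and Ddx58 kept their calls in all 18 alternatives, and the count was 2 without week 3 replicate 1 and when only these 2 groups were fitted. GS cells against week 3 gave 2 of 8, beside 22.5% of all genes: Aim2 and Ddx58 were higher (11.7% of all genes). The median of the 8 was 0.40, beside -0.00677 over all genes. That count was 1 when only these 2 groups were fitted, and it also fell without week 3 replicate 2 or GS replicate 1. Aim2 was 1.44 without week 3 replicate 2. Without GS replicate 1, Aim2 was 1.66 and Ddx58 0.70. GS cells against week 0 gave 5 of 8, beside 80.6% of all genes: Aim2, Ifih1 and Tbk1 were higher (34.7%) and Dhx58 and Irf3 lower (45.9%). The median of the 8 was 0.11, beside -0.208 over all genes, which became 0.445 after quantile normalization and 0.168 on a common sum, with 61.1% and 54.1% of calls higher in place of 43.0%. All 8 were called after quantile normalization, Ddx58, Mavs and Trex1 as higher, beside 13167 of all 15671 genes. Both GS comparisons share the GS libraries and are not independent of each other.

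Partners of the sensors were read from 9 lists with 171 genes in the matrix, of which 150 passed the filter. At week 1 against week 0, 77 of the 150 rose (51.3%) and 35 fell (23.3%), with a median of 0.52. At week 2 against week 1, 31 rose (20.7%) and 51 fell (34.0%), and GS cells were higher than week 0 in 66 (44.0%) and lower in 45 (30.0%). These shares stand beside the 36.3% and 44.0%, the 28.2% and 27.4%, and the 34.7% and 45.9% of all genes given above.

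**Figure D3:**
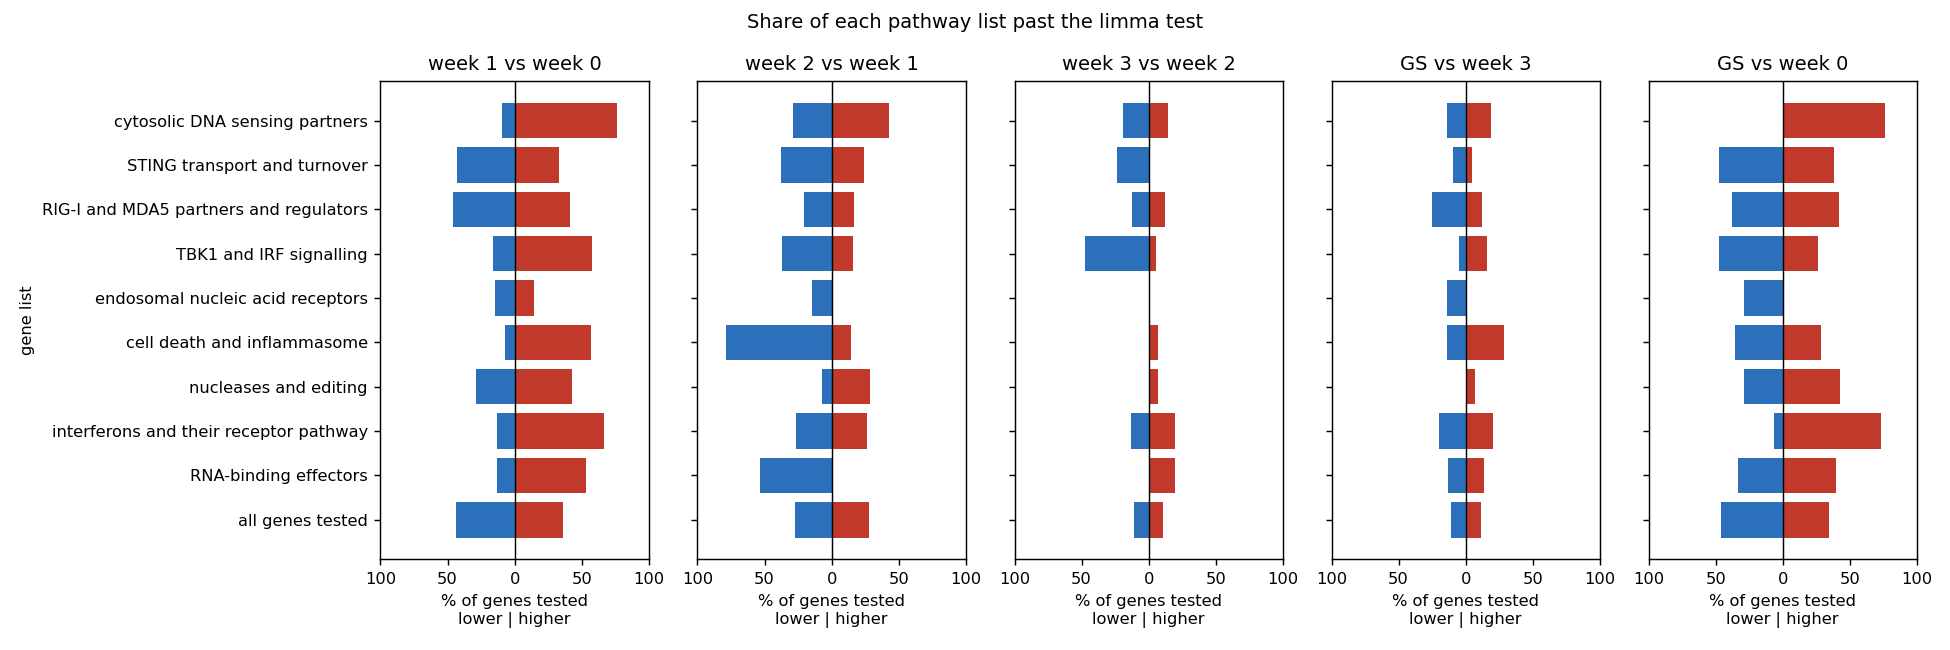
Share of the tested genes of each list that were called higher (red, to the right) or lower (blue, to the left) by limma in each comparison, with all 15671 genes in the lowest row. The DNA sensing partners and the interferon pathway reach furthest to the right in GS cells against week 0 (16 of 21 and 11 of 15), and the cell death list reaches furthest to the left at week 2 against week 1 (11 of 14).

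The cytosolic DNA sensing list (21 genes tested) covered cGAS, its cofactors, other DNA binders and further genes that are not DNA binders, such as Ifi35. Of these 21, 16 rose and 2 fell at week 1 (median 0.96), beside 36.3% and 44.0% of all genes. In GS cells against week 0, 16 were higher (median 1.27), beside 34.7% of all genes. None was called lower by limma there, beside 45.9% of all genes, and 1 was lower at an unadjusted p under 0.05. Mb21d1, the gene of cGAS, read 0.636 and 0.445 FPKM (week 0), 2.22 and 2.55 (week 1), 4.65 and 4.99 (week 2), 3.79 and 4.08 (week 3) and 3.60 and 3.26 (GS cells). It rose at weeks 1 and 2 (log2 fold changes 1.14 and 0.78, limma adjusted p = 3.84e-05 and 0.000926). Its means at weeks 2 and 3, 4.82 and 3.93 FPKM, were above the 0.541 of week 0. Those of Tmem173, the gene of the adaptor for its product, were 1.26 and 0.325 FPKM, below the 1.82 of week 0. Weeks 2 and 3 were not tested against week 0 for either gene. Ifi204, a PYHIN protein that binds DNA, was a week 1 gene, at 21.8 ± 0.26 FPKM against 0.392 ± 0.033 at week 0 (log2 fold change 4.03, limma adjusted p = 9.63e-09) and back to 1.43 ± 0.02 at week 2 (-3.23, adjusted p = 1e-06). Its relative Ifi203 fell at week 2 as well (-2.13, limma adjusted p = 9.72e-05), reads of this gene family being hard to assign between close copies. Lrrfip1 (1.92, limma adjusted p = 6.2e-05) and Ifi35 (1.85, adjusted p = 2.6e-06) led the list in GS cells against week 0, and Lrrfip1 rose most after Ifi204 at week 1 (3.15, adjusted p = 2.54e-06).

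Genes of STING transport and turnover (21 tested) went both ways: 7 rose and 9 fell at week 1, near the 36.3% and 44.0% of all genes. In GS cells against week 0, 8 were higher and 10 lower, beside 34.7% and 45.9% of all genes. The week 1 split turned to 12 higher and 6 lower after quantile normalization and to 10 and 7 on a common sum. Over all 15671 genes these scales gave 7772 higher and 5223 lower, and 6484 and 6147. The median in GS cells against week 0 was -0.10, which became 0.46 after quantile normalization and 0.36 on a common sum. The medians of all genes on these scales were 0.445 and 0.168. Enpp1, the ectoenzyme that breaks down the STING ligand, read 0.861 and 0.439 FPKM (week 0), 16.8 and 18.3 (week 1), 1.43 and 2.36 (week 2), 0.533 and 0.769 (week 3) and 1.40 and 1.54 (GS cells). It shared the week 1 peak of Tmem173 (log2 fold change 3.50, limma adjusted p = 4.24e-07) and its fall at week 2 (-2.70, adjusted p = 1.3e-05), but not its level in GS cells. The deubiquitinase gene Usp20, which stabilizes STING, fell at week 1 (-3.41, limma adjusted p = 2.45e-08) and was lower in GS cells than at week 0 (-2.75, adjusted p = 9.07e-08), as was Zdhhc1 (-3.39, adjusted p = 1.58e-08). Usp18 fell at week 2 (-1.29, limma adjusted p = 0.00213).

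Partners and regulators of RIG-I and MDA5 (24 tested) gave 10 higher and 11 lower at week 1, and 10 higher and 9 lower in GS cells against week 0, beside 36.3% and 44.0%, and 34.7% and 45.9%, of all genes. Quantile normalization turned the week 1 split to 12 higher and 4 lower, and a common sum to 12 and 8. Over all 15671 genes these scales gave 7772 higher and 5223 lower, and 6484 and 6147. For GS cells against week 0 the splits became 14 and 7 after quantile normalization, and 14 and 9 on a common sum. All genes there gave 8039 and 5128, and 7015 and 5951. Trim25, the ubiquitin ligase linked to RIG-I activation, read 7.99 and 7.87 FPKM (week 0), 24.6 and 27.4 (week 1), 38.8 and 38.1 (week 2), 43.0 and 41.7 (week 3) and 41.6 and 39.3 (GS cells). It rose at weeks 1 and 2 (1.59, limma adjusted p = 3.76e-07, and 0.55, adjusted p = 0.000819) and stayed up where Ddx58 was low. GS cells exceeded week 0 by 2.22 (adjusted p = 5.08e-08). Rnf125, a ligase that marks RIG-I for degradation, was lower in GS cells than at week 0 (1.71 ± 1.2 against 21.3 ± 1.1 FPKM, -3.12, limma adjusted p = 9.13e-06). Rnf122, another such ligase, rose at week 1 (2.44, limma adjusted p = 3.24e-07), and Mfn2, a mitochondrial fusion protein that binds MAVS, fell (-2.23, adjusted p = 2.36e-07). At week 2 Ywhah fell (-1.58, limma adjusted p = 3.92e-06) and Zcchc3 rose (1.52, adjusted p = 0.000133). The list gave 4 higher and 5 lower there, beside 28.2% and 27.4% of all genes, and fewer calls without week 2 replicate 2.

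Of 19 genes tested in TBK1 and IRF signalling, 11 rose and 3 fell at week 1, beside 36.3% and 44.0% of all genes. At week 2, 3 rose and 7 fell, beside 28.2% and 27.4% of all genes. In GS cells against week 0, 5 were higher and 9 lower, beside 34.7% and 45.9% of all genes. That last split turned to 11 higher and 3 lower after quantile normalization and 8 and 5 on a common sum. Over all 15671 genes these scales gave 8039 higher and 5128 lower, and 7015 and 5951. Ikbke, the kinase most like TBK1, read 2.41 and 3.28 FPKM (week 0), 12.3 and 14.4 (week 1), 1.39 and 1.26 (week 2), 0.519 and 0.909 (week 3) and 0.752 and 0.793 (GS cells). It thus peaked at week 1 while Tbk1 stayed up. Its rise (1.90, limma adjusted p = 8.23e-06) and fall (-2.62, adjusted p = 7.21e-06) went with those of Nfkb1 (2.83, adjusted p = 2.39e-07, and -2.34, adjusted p = 6.13e-06), and Nfkbia also rose at week 1 (2.07, adjusted p = 9.27e-07). In GS cells against week 0 Ikbke was lower (-1.11, limma adjusted p = 0.00026), a difference of -0.02 (adjusted p = 0.891) after quantile normalization. Irf7, the interferon-induced partner of IRF3, read 4.89 and 2.57 FPKM (week 0), 5.25 and 4.63 (week 1), 2.42 and 1.52 (week 2), 0.142 and 0.413 (week 3) and 0.152 and 0.0374 (GS cells). It was lower in GS cells than at week 0 (-2.07, limma adjusted p = 7.2e-05; -1.09 after quantile normalization). It had fallen at week 2 (-1.01, adjusted p = 0.00879), a call lost without week 2 replicate 2 (-0.79, adjusted p = 0.0621) and after quantile normalization (-0.64, adjusted p = 0.0643). Optn, an adaptor of TBK1, was lower in GS cells than at week 0 (-3.18, limma adjusted p = 6.28e-07). The list had 5 calls in place of 10 at week 2 without week 2 replicate 2.

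Ifnb1, the interferon beta gene that IRF3 drives, read 3.17 and 6.34 FPKM at week 0 and was listed at 0 in all 8 other libraries. It was lower at week 1 and in GS cells than at week 0 (limma adjusted p = 9.61e-06 and 9.56e-06), with no fold given against groups at 0. Of 15 tested genes of interferons and their receptor pathway, 10 rose and 2 fell at week 1 (median 1.08). This stands beside 36.3% and 44.0% of all genes. In GS cells against week 0, 11 were higher and 1 lower (median 0.88), beside 34.7% and 45.9% of all genes. Ifnar1, a subunit of the type I interferon receptor, read 118 and 145 FPKM in GS cells against 15.9 and 23.4 at week 0 (2.70, limma adjusted p = 3.49e-06). Ifnar2, the other subunit, rose at week 1 (2.21, adjusted p = 3.86e-06) and fell at week 2 (-1.69, adjusted p = 8.05e-05). Irf8 read 5.09 and 7.27 FPKM (week 0), 0.928 and 1.40 (week 1), 6.70 and 5.44 (week 2), 21.2 and 18.1 (week 3) and 24.6 and 29.9 (GS cells). It rose at weeks 2 and 3 (1.71, limma adjusted p = 0.00019, and 1.55, adjusted p = 0.00176). Irf9, a transcription factor of the interferon response, was called in no comparison (adjusted p 0.0552 to 0.867). Cd274, the interferon-inducible gene of PD-L1, rose at weeks 1 and 2 and read 26.6 and 26.6 FPKM in GS cells against 1.89 and 1.83 at week 0 (3.27, limma adjusted p = 1.01e-08). At week 2 the list gave 4 higher and 4 lower, beside 28.2% and 27.4% of all genes. Leaving out week 1 replicate 1 or week 2 replicate 2 moved that count by over 1.5 times.

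The list of RNA-binding effectors (15 tested), which also holds other interferon-induced genes such as Isg15, followed the week 1 peak. At week 1, 8 rose and 2 fell, beside 36.3% and 44.0% of all genes. At week 2, 8 fell, beside 27.4% of all genes. None rose there by limma, beside 28.2% of all genes, nor at an unadjusted p under 0.05 (0 of 15). After quantile normalization 2 were higher and 7 lower at week 2, beside 5785 and 3577 of all 15671 genes. Isg15, a ubiquitin-like protein induced by interferon, read 2.61 and 2.42 FPKM (week 0), 29.5 and 22.7 (week 1), 6.98 and 6.97 (week 2), 14.9 and 15.2 (week 3) and 20.0 and 16.8 (GS cells). It rose by 2.94 at week 1 (log2, limma adjusted p = 2.39e-07), fell at week 2 (-1.75, adjusted p = 3.03e-05) and was higher in GS cells than at week 0 (2.46, adjusted p = 7.37e-07). Ifit3, another interferon-induced gene, fell at week 2 to 0.0450 ± 0.0045 FPKM against 3.12 ± 0.47 at week 1 (-1.98, limma adjusted p = 1.69e-05). It read 0.0922 and 0.103 in GS cells, where Isg15 was high. Isg20, an exonuclease that degrades RNA, fell at week 1 (-2.80, limma adjusted p = 2.97e-06) and was lower in GS cells than at week 0 (-3.28, adjusted p = 1.12e-06). Eif2ak2, the kinase PKR that RNA activates, fell at week 2 (-1.66, limma adjusted p = 0.000107). It was lower in GS cells than at week 0 (-0.71, limma adjusted p = 0.00523), a difference that was 0.13 (adjusted p = 0.48) after quantile normalization and -0.28 (adjusted p = 0.148) on a common sum.

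The cell death and inflammasome list (14 tested) held genes downstream of ZBP1 and AIM2 and genes of other inflammasomes, such as Casp4. It gave 8 higher and 1 lower at week 1. This stands beside 36.3% and 44.0% of all genes. At week 2 it gave 2 higher and 11 lower, beside 28.2% and 27.4% (median -1.35 against 0.0252 over all genes). In GS cells against week 0 it gave 4 higher and 5 lower, beside 34.7% and 45.9% of all genes. That split turned to 10 and 1 after quantile normalization. Over all 15671 genes, that scale also turned the calls, to 8039 higher and 5128 lower. Ripk3, the kinase that ZBP1 engages, read 10.1 and 15.7 FPKM (week 0), 138 and 164 (week 1), 91.0 and 119 (week 2), 134 and 117 (week 3) and 86.3 and 72.9 (GS cells). It rose at week 1 (3.48, limma adjusted p = 8.69e-07) and stayed high in all cultures, with GS cells above week 0 by 2.56 (adjusted p = 6.18e-06). Mlkl, the executioner below RIPK3, did not follow: it read 6.87 and 6.51 FPKM (week 0), 6.92 and 7.60 (week 1), 1.51 and 1.17 (week 2), 1.56 and 1.66 (week 3) and 2.98 and 3.76 (GS cells). Mlkl fell at week 2 (-1.82, limma adjusted p = 2.03e-05) and was lower in GS cells than at week 0 (-0.82, adjusted p = 0.00062). That difference was -0.41 on a common sum and 0.16 (adjusted p = 0.301), with the sign turned, after quantile normalization. Against week 3, at 1.61 FPKM, Mlkl was higher in GS cells, at 3.37 FPKM (0.74, limma adjusted p = 0.00848). That call was lost when only these 2 groups were fitted. The Ripk3 mean of GS cells, 79.6 FPKM, was the lowest of the cultured groups.

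Pycard, the adaptor that joins AIM2 to its caspase, read 4.30 and 3.22 FPKM (week 0), 5.18 and 3.64 (week 1), 10.1 and 11.1 (week 2), 8.98 and 13.7 (week 3) and 36.2 and 24.5 (GS cells). Like Aim2, it had its highest mean in GS cells. It rose at week 2 (1.12, limma adjusted p = 0.00647) and was higher in GS cells than at week 0 (2.70, adjusted p = 1.58e-05). Casp1, the caspase of that inflammasome, read 0.293 and 0.492 FPKM in GS cells, and its highest library was 1.89 at week 1. It was higher at week 1 than at week 0 (0.63, limma adjusted p = 0.00757; lost without week 0 replicate 1, 0.42, adjusted p = 0.0557, and with a pseudocount of 0.1, adjusted p = 0.1). It fell at week 2 (-1.30, adjusted p = 0.000312). Casp4, a caspase of the noncanonical inflammasome, rose at week 1 (3.79, limma adjusted p = 1.57e-06) and fell at week 2 (-2.58, adjusted p = 7.22e-05), as Nek7 did at week 2 (-2.51, adjusted p = 1.86e-06).

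**Figure D4:**
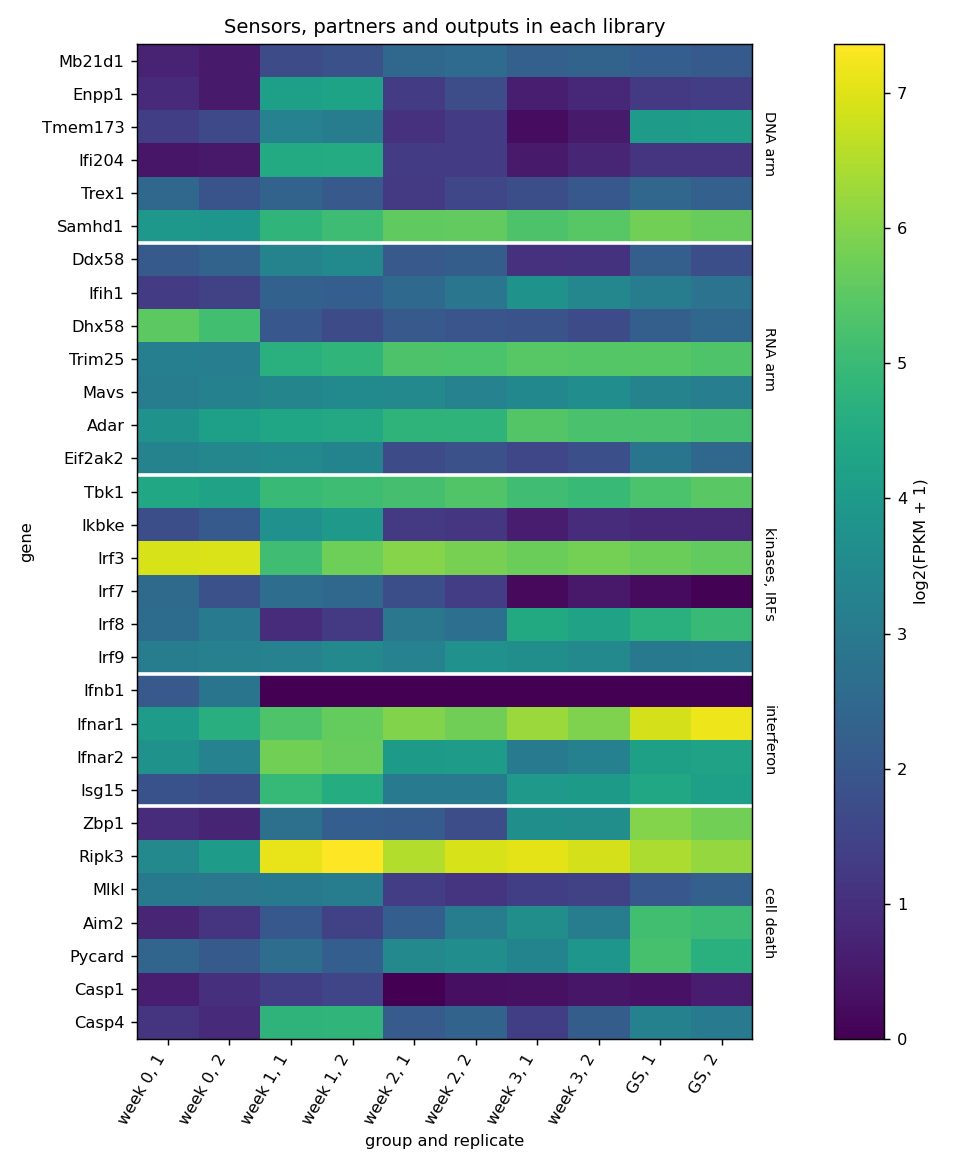
log2(FPKM + 1) of the 10 genes and their named partners (rows, grouped by route) in each of the 10 libraries (columns), brighter where higher. Tmem173, Enpp1, Ifi204 and Ikbke are bright at week 1, Zbp1, Aim2 and Pycard brighten towards GS cells, and Ifnb1 is at 0 from week 1 on.

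Of the nucleases and editors (14 tested), 6 rose and 4 fell at week 1, beside 36.3% and 44.0% of all genes. In GS cells against week 0, 6 were higher and 4 lower, beside 34.7% and 45.9% of all genes. After quantile normalization these splits were 10 and 2, and 9 and 3. Over all 15671 genes they were then 7772 and 5223, and 8039 and 5128. Rnaseh2a, the catalytic subunit of RNase H2, fell at week 1 to 109 ± 9 FPKM against 1062.6 ± 11 at week 0 (-3.28, limma adjusted p = 5.97e-09) and was lower in GS cells than at week 0 (-2.66, adjusted p = 1.97e-08). Rnaseh2b, another subunit, was higher in GS cells than at week 0 (2.22, adjusted p = 5.35e-07). Samhd1, which removes the nucleotides for DNA synthesis, rose at weeks 1 and 2 (1.06, limma adjusted p = 2.49e-05, and 0.63, adjusted p = 0.00149). It read 54.2 and 49.1 FPKM in GS cells against 14.3 and 13.6 at week 0 (1.82, adjusted p = 7.66e-07). Adar, the enzyme that edits RNA so that MDA5 ignores it, read 36.8 and 35.7 FPKM in GS cells against 12.9 and 16.8 at week 0 (1.24, limma adjusted p = 2.13e-05). Its highest mean was at week 3, at 39.1 FPKM, but GS cells were not called different from week 3 (-0.10, limma adjusted p = 0.615). Adar rose at week 3 (0.54, limma adjusted p = 0.018), a call lost without week 2 replicate 1 (0.54, adjusted p = 0.0843), week 2 replicate 2 (0.54, adjusted p = 0.0855) or week 3 replicate 1 (0.48, adjusted p = 0.0964). Skiv2l fell at week 1 (-1.72, limma adjusted p = 1.41e-05) and Dnase1l1 at week 2 (-1.35, adjusted p = 0.00156). At week 2 the list of nucleases and editors gave 4 higher and 1 lower, beside 28.2% and 27.4% of all genes. Without week 1 replicate 1, week 2 replicate 1 or week 2 replicate 2 that count moved by over 1.5 times. Endosomal receptors (7 tested) held 1 higher and 1 lower at week 1, beside 36.3% and 44.0% of all genes. That split became 5 and 0 after quantile normalization and 3 and 0 on a common sum. Over all 15671 genes these scales gave 7772 higher and 5223 lower at week 1, and 6484 and 6147. Tlr3, a receptor for RNA, rose (1.16, limma adjusted p = 0.00144) and Myd88, an adaptor of these receptors, fell (-0.62, adjusted p = 0.0227). The Myd88 call was lost without week 0 replicate 2 (-0.48, adjusted p = 0.16) or week 1 replicate 1 (-0.52, adjusted p = 0.107). It was lost too after quantile normalization (-0.24, adjusted p = 0.292) and on a common sum (-0.38, adjusted p = 0.129). Unc93b1, which carries these receptors to endosomes, fell at week 2 (-2.04, limma adjusted p = 1.74e-05) and was lower in GS cells than at week 0 (-1.99, adjusted p = 3.87e-06; -1.07 after quantile normalization). Myd88 was lower there too (-0.81, limma adjusted p = 0.00618), a call lost without week 0 replicate 2 (-0.67, adjusted p = 0.0663), after quantile normalization (-0.30, adjusted p = 0.201) and on a common sum (-0.36, adjusted p = 0.149).

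The last steps of the series moved fewer partners. At week 3 against week 2, 15 of the 150 rose and 23 fell, against 10.6% and 10.7% of all genes. The 38 calls became 18 without week 2 replicate 2, and leaving out week 2 replicate 1 or week 3 replicate 1 also moved the count by over 1.5 times. The RNA effector genes Oasl2 (1.76, limma adjusted p = 0.000818) and Oasl1 (1.25, adjusted p = 0.00613), with Polr3a (0.66, adjusted p = 0.00168), rose and kept their calls in every alternative. So did the falls of Tnfaip3 (-1.62, adjusted p = 0.000763), Optn (-1.22, adjusted p = 0.00324), Stim1 (-0.80, adjusted p = 0.00444) and Rnf122 (-0.83, adjusted p = 0.00358). GS cells against week 3 gave 21 higher and 20 lower, against 11.7% and 10.8% of all genes. The 41 calls became 21 without GS replicate 1, and leaving out GS replicate 2 or either library of week 3 also moved the count by over 1.5 times. Oasl2, at 9.33 ± 1.6 FPKM in GS cells against 38.4 ± 5.9 at week 3, was lower (-1.93, limma adjusted p = 0.000579). Ifnar2 (1.09, adjusted p = 0.00364), Ifi35 (0.75, adjusted p = 0.00648) and Cd274 (0.54, adjusted p = 0.00628) were higher. These 4 calls held in every alternative that gave a value. Dnase1l3, at 1.34 against 0.599 FPKM, was higher too (0.55, adjusted p = 0.00696). Tnfaip3 (1.22, limma adjusted p = 0.00258), Nfkbia (0.70, adjusted p = 0.00701), Prkdc (0.73, adjusted p = 0.00446), Casp4 (1.38, adjusted p = 0.00741) and Eif2ak2 (0.98, adjusted p = 0.00688) were higher and Zdhhc1 (-0.57, adjusted p = 0.00808) lower. Their calls were lost when only the 2 groups were fitted.

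Calls of other named partners in these last steps ended when a single library was left out. At week 3 against week 2, Hmgb2 (-0.64, limma adjusted p = 0.043) was lost, at adjusted p of 0.0646 to 0.194, without any 1 library of week 0, week 2, week 3 or GS cells. The same held for Zcchc3 (0.59, limma adjusted p = 0.0393), at 0.0514 to 0.165. Enpp1 (-0.80, limma adjusted p = 0.021) was lost without week 2 replicate 2 (-0.56, adjusted p = 0.121) or week 3 replicate 1 (-0.69, adjusted p = 0.112). Il18 (0.75, limma adjusted p = 0.00962) had adjusted p of 0.0513, 0.0584 and 0.0547 without week 2 replicate 1, week 2 replicate 2 and week 3 replicate 2. Irf7 (-1.21, limma adjusted p = 0.0121) was lost without week 2 replicate 1 (-0.99, adjusted p = 0.078) or week 3 replicate 1 (-1.06, adjusted p = 0.0741). Ifnar2 (-0.91, limma adjusted p = 0.00801) was lost without week 2 replicate 2 (adjusted p = 0.0512) or week 3 replicate 1 (adjusted p = 0.0511). In GS cells against week 3, Pycard (1.35, limma adjusted p = 0.00879) was lost without week 3 replicate 1 (1.07, adjusted p = 0.0511) or GS replicate 1 (1.08, adjusted p = 0.0581). Mlkl (0.74, limma adjusted p = 0.00848) and Rsad2 (1.37, adjusted p = 0.00806), an interferon-induced antiviral enzyme, were lost without GS replicate 2 (0.61, adjusted p = 0.0512, and 1.21, adjusted p = 0.0514). Ifnar1 (0.94, limma adjusted p = 0.0144) was lost without week 3 replicate 2 (0.77, adjusted p = 0.0793) or GS replicate 2 (0.79, adjusted p = 0.0828).

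The remaining named calls of GS cells against week 3 were as frail. Stim1 (0.58, limma adjusted p = 0.0158) was lost without week 3 replicate 1 (0.46, adjusted p = 0.0846) or GS replicate 1 (0.51, adjusted p = 0.0921). Zcchc3 (-0.73, limma adjusted p = 0.0175) was lost without week 3 replicate 1 (-0.66, adjusted p = 0.0879) or GS replicate 2 (-0.63, adjusted p = 0.0931). Mfn1 (-0.72, limma adjusted p = 0.0313) was lost without any 1 library of week 0, week 3 or GS cells, at 0.0742 to 0.15. Tlr3 (-0.89, limma adjusted p = 0.026) was lost without either library of week 0 (adjusted p = 0.0629 and 0.063) or week 3 (0.0649 and 0.12) and without GS replicate 1 (0.144).

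Markers of other cell types moved with several of these results. The 12 fibroblast markers, none at 0 in any group, summed to 7271.2 and 7265.9 FPKM at week 1 against 682 and 827 at week 0, and to 775 and 811 at week 2. They were thus high at week 1 where Tmem173, Ddx58, Enpp1, Ifi204 and Ikbke were, and their part in these results was not tested. In GS cells the same sum was 679 and 661 FPKM. At week 3 the 2 libraries differed in this sum, with 370 and 716 FPKM. The 8 spermatid markers, at 173 and 160 FPKM at week 1 against 23611.2 and 25350.8 at week 0, and the 9 meiotic markers, at 160 and 132 against 5151.2 and 4803.4, were lower where Dhx58, Irf3, Usp20 and Rnaseh2a fell. The 7 Leydig cell markers summed to 74.8 and 82.3 at week 1, with Cyp17a1 and Lhcgr at 0, against 1782.5 and 1541.8 at week 0. None of these 3 sets had a gene at 0 at week 0, and their part was not tested.

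The 14 macrophage markers summed to 34.9 and 32.8 FPKM in GS cells against 159 and 194 at week 0. In GS cells 9 of the 14 averaged under 1 FPKM and Cx3cr1 was at 0. Csf1r, C1qa and Adgre1 averaged 0.0339, 0.113 and 0.110 FPKM there. Cd68 made up most of the GS sum and went the other way, at 26.0 FPKM against 8.69 at week 0. The part of macrophages in these results was not tested. Of the 12 lymphocyte markers, 9 averaged under 1 FPKM in GS cells and Cd3g, Ms4a1 and Nkg7 were at 0, but Lck and Cd2 averaged 9.79 and 7.94 FPKM. The sum was 25.1 and 20.8 FPKM in GS cells against 59.3 and 49.8 at week 0. Cd3d alone made up most of the week 0 sum, at 0.0563 FPKM in GS cells against 45.6 at week 0. Lck, Cd2 and Cd79a went the other way, at 9.79, 7.94 and 2.57 FPKM in GS cells against 2.56, 1.21 and 0.0699 at week 0.

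**Figure D5:**
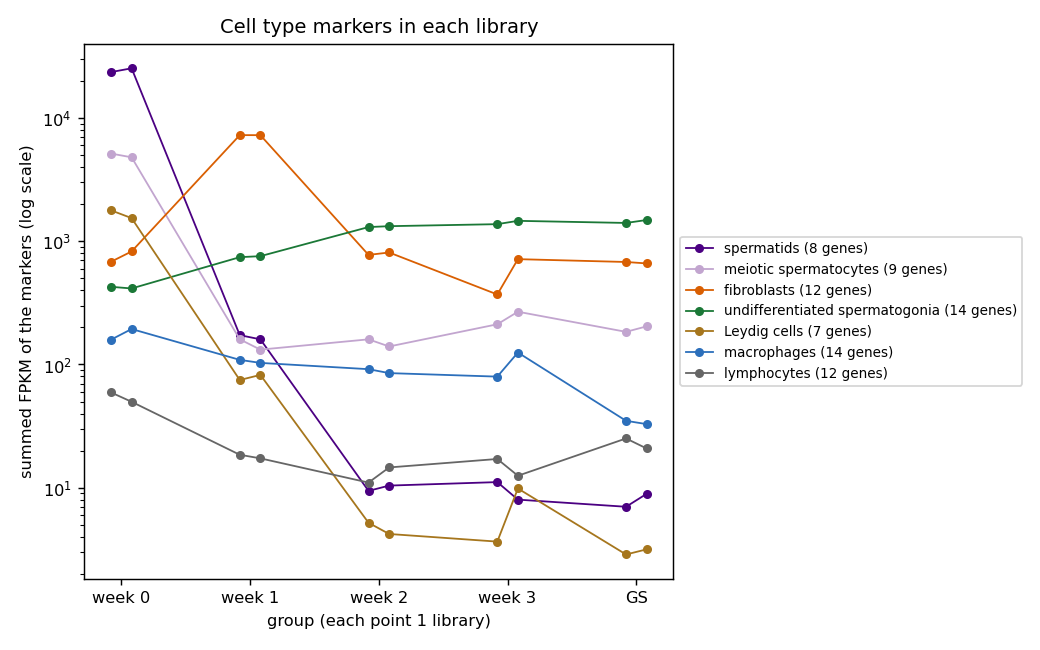
Summed FPKM of marker lists (log axis) in each of the 10 libraries by culture stage, 1 line per cell type. The fibroblast line peaks at week 1 (7271.2 and 7265.9), the spermatid line is highest at week 0 and reads 7.00 and 8.92 in GS cells, and the macrophage line is lowest in GS cells (34.9 and 32.8).

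Genes whose pattern was most like each of 3 sensors were ranked by Pearson r of log2(FPKM + 1) over the 10 libraries, which fall into 5 groups, so that r describes shared steps between groups. For Tmem173 these were Tns2 (0.959), Cox17 (0.955), Wfikkn1 (0.952), Tmem9b (0.951) and Higd2a (0.948), and 20 genes passed 0.9. For Zbp1 they were Tas1r2 (0.975), Pax7 (0.973), Stau2 (0.965), Atp5o (0.964) and Gm3604 (0.964), with 72 genes past 0.9. Ddx58 had the most company, 261 genes past 0.9, led by Nucb1 (0.986), Cnn2 (0.982), Pamr1 (0.982), Itga11 (0.970) and Lrp1 (0.970). Tns2, a focal adhesion protein, averaged 48.1 FPKM (week 1), 25.2 (week 3) and 56.2 (GS cells), a shallower course than that of Tmem173. Lrp1, an endocytic receptor of many stromal cells, averaged 192 FPKM at week 1 against 69.3 at week 0 and 33.2 at week 3.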

How the data were processed

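Poly(A) RNA of 10 libraries, 2 in each of 5 groups, was prepared with a stranded kit, per the labels' protocols. The deposited values are FPKM per gene that the authors made; the submitters' processing notes name HISAT2 2.1.0 and Bowtie2 2.3.4.1, Cufflinks 2.2.1, Cuffdiff, cutadapt 1.16 and bcl2fastq 2.17.1.14, and the build mm10. No source used here gives the annotation release, the strand setting or any filter. Of the gene IDs, 21951 of 21969 were found in GENCODE M21, which supplied gene coordinates (GRCm38), and 27 symbols that had been turned into dates were restored.

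Depth was computed from the steps of low FPKM values of 2261 genes with 1 transcript, assuming fragments of 200 bases; 96.35 to 99.32% of the low values were whole within 0.15 read. FPKM 1 on a transcript of 2200 bases is then 20.7 to 42.1 reads, and depth limits the low genes most. Genes with FPKM 1 or more in at least 2 libraries (15671) were fitted as log2(FPKM + 1) in one model of 5 group means with limma 3.58.1 (R 4.3.3; intensity trend, two-sided, Benjamini-Hochberg over all genes tested, threshold 0.05, 5 residual degrees of freedom), a script tested on simulated data. Tables and figures were made with Python 3.11.15, pandas 2.3.3, numpy 2.4.6 and matplotlib 3.10.9.

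The members and lists were chosen with earlier results of these data known. Named besides the 10 members were the 2 called genes with the largest absolute log2 fold change in each list and comparison, 16 partners whatever their values (1 of them is not reported here), and the 5 genes most like Tmem173, Zbp1 and Ddx58. Other pseudocounts, filters, scalings, fits of only 2 groups, a replicate block and leaving out each library were tried.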

Additional observations from a re-analysis of the deposited data

How the results depend on the processing

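Of 46 tested results on the 10 genes, 27 kept direction and side of the threshold in all 18 alternatives, as did 82 of 113 results on named partners; the alternatives for partners were added after the data were seen. Unless a cause is named, it was not tested. The count of the 10 genes called at week 2 against week 1 was 3 with no filter and 3 when only the 2 groups were fitted; that fit also gave 2 at week 3 against week 2 (1880 genes in all against 3339) and 1 for GS cells against week 3 (1326 genes against 3526). Quantile normalization called 8 in GS cells against week 0, beside 13167 of all 15671 genes.

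Leaving out 1 library gave 7 to 8 of the 10 genes called at week 1 against week 0, 3 to 5 at week 2 against week 1, 2 to 4 at week 3 against week 2, 0 to 2 in GS cells against week 3 and 5 to 5 in GS cells against week 0. Over all genes the counts were 11643 to 12535, 7065 to 8576, 1587 to 3523, 1788 to 3708 and 11762 to 12779 in the same order of comparisons; a group left with 1 library was assumed to vary like the others.

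Signs turned for small, mostly uncalled differences. Trex1 at week 1 was -0.24 to 0.31 when 1 library was left out (-0.24 without week 0 replicate 2, -0.12 without week 1 replicate 1), and in GS cells against week 0 it was -0.10 (without week 0 replicate 2) to 0.45. Mavs at week 2 was 0.12 after quantile normalization, 0.21 on a common sum, 0.00 without week 1 replicate 2 and -0.17 to 0.03 over all libraries left out in turn; in GS cells against week 0 it was -0.02 without week 0 replicate 1 and -0.03 without GS replicate 1. Against week 0, GS cells had Ddx58 at 0.83 after quantile normalization and 0.14 on a common sum, and Mlkl at 0.16 and Eif2ak2 at 0.13 after quantile normalization. Zbp1 at week 2 was called lower without week 1 replicate 2 (-0.77) or week 2 replicate 1 (-0.71). A pseudocount of 0.1 enlarged low genes, as with Mb21d1 at week 1 (1.97), Usp18 (-2.04), Casp1 (-3.33) and Ifit3 (-4.47) at week 2, and Irf7 in GS cells against week 0 (-4.30).

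Libraries with the same replicate number showed no shared shift: their deviations correlated at -0.0525 to 0.0458 over 10 pairs of groups. These values cannot tell whether such libraries come from the same mice or cultures, which the labels do not state. With the replicate block, 7, 5, 4, 2 and 5 of the 10 genes were called, in the same order of comparisons, and 12543, 8610, 3159, 3251 and 12617 of all genes. The block ended the calls of Aim2 at week 2 (adjusted p = 0.0662) and Hmgb2 at week 3 (adjusted p = 0.0619), and called Zbp1 lower at week 2 (-0.52, adjusted p = 0.0228). Trex1 had no value with the filter at FPKM 5.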

Other observations

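GS cells held a few transcripts better known from blood cells, and the earlier stages held them too, at lower levels. At weeks 2 and 3 Lck averaged 7.51 and 7.81 FPKM, Cd2 2.76 and 4.58, and Cd68 11.0 and 13.1. Lck averaged 9.79 FPKM and Cd2 7.94 FPKM in GS cells, while Ms4a1, Nkg7 and Cd3g were at 0, and Cd68 averaged 26.0 FPKM while Cx3cr1 was at 0. Their source was not tested.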
